A study of Mus musculus with 9 samples.

Results

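The genes described here are 9 genes through which endothelial cells (ECs) keep blood fluid or let it clot: Thbd, Procr, Tfpi, Vwf, F8, Plat, Plaur, Anxa2 and F2r. They were chosen by function, and every peak that the deposited annotation named for any of them was taken. The annotation names a peak for the gene with the nearest transcription start site (TSS). They are 9 of 20035 genes named by any peak, and they carried 163 of 253457 peaks. Peaks of different libraries that shared at least 1 bp were joined, which gave 34 of 92495 merged regions. Of these, 8 were promoter regions, with a peak of the class promoter-TSS in at least 1 library, and 26 were distal. A region is called here by its gene and its distance to the TSS.

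Open chromatin of nuclei from purified mouse brain ECs was read by Omni-ATAC-seq. A transposase, Tn5, inserts adapters where DNA is accessible, and stretches with many inserts are called as peaks. The study compared young and old mice with and without Klf4, a transcription factor gene, in ECs. Young WT Cre (n = 2) and old WT Cre (n = 2) mice carried the VE-cadherin Cre driver with intact Klf4, and young EC-K4KO (n = 3) and old EC-K4KO (n = 2) mice carried the same Cre with floxed Klf4. By the methods of the study all mice were C57BL/6J and received tamoxifen, the controls too, at 8 weeks, with young cohorts of 4 to 6 months and old cohorts of 20 to 23 months. VE-cadherin Cre acts in all ECs, not in brain alone, and the labels do not say whether each library was a separate mouse. P-values therefore measure the spread between these libraries.

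At rest, ECs hold clotting back. Thrombomodulin (Thbd) binds thrombin and, with the endothelial protein C receptor (Procr), turns it toward activation of protein C, while tissue factor pathway inhibitor (Tfpi) blocks the tissue factor start of the cascade. ECs also store von Willebrand factor (Vwf), the platelet tether that carries factor VIII (F8). They release tissue plasminogen activator (Plat), and annexin A2 (Anxa2) and the urokinase receptor (Plaur) gather plasmin formation at the cell surface. The thrombin receptor PAR1 (F2r) reports thrombin to the cell. In brain capillaries Thbd is known to be low, and Vwf is known to be higher in veins than in capillaries.

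The peak lists differed widely in length. Young WT Cre lists held 6157 and 9598 peaks, young EC-K4KO lists 23848 to 27992, old WT Cre lists 32555 and 43893 and old EC-K4KO lists 39079 and 45026. Read depth is unknown. Library names begin with A1 in all young and A2 in all old libraries, so age and library set cannot be told apart. Of 15 endothelial marker genes, 7 to 12 per library had a promoter-TSS peak, and Cldn5, Flt1, Tie1 and Erg had one in all 9 libraries. No microglia, oligodendrocyte or neutrophil marker had one in any library. Of 10 pericyte and mural markers, 0 had one in young libraries, 0 and 1 in old WT Cre and 1 and 3 in old EC-K4KO, namely Kcnj8 in 2 libraries and Pdgfrb, Cspg4 and Acta2 in 1 each, while Rgs5, Vtn, Higd1b, Anpep, Notch3 and Abcc9 had none. Of 8 astrocyte markers the numbers were 0 in young, 0 and 1 in old WT Cre and 2 in each old EC-K4KO library. Of 5 neuron markers they were 0 in WT Cre libraries, 0 to 1 in young EC-K4KO and 1 and 2 in old EC-K4KO. Of 6 platelet and megakaryocyte markers, Itgb3 alone had one, in young EC-K4KO 3 and old EC-K4KO 1. The part of these cells in the results was not tested. A peak lay over exon 1 of Klf4 in all 9 libraries. Which part of Klf4 is deleted is not given in the sources used here, so this does not check the knockout.

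Sequence is shown for promoters with a window at hand and for some distal regions. The promoter windows are those of RefSeq on GRCm38.p6, cut to the bases before annotated exons. The table held 7 windows, for Procr, Tfpi, F8, Plaur, Anxa2 and F2r, and those of the 5 genes with a promoter peak are shown, all but that of F8. It held none for Thbd, Vwf or Plat. The first Tfpi window printed lies outside the Tfpi promoter region, and no peak named for Tfpi covered it. Capitals mark matches, on either strand, to a KLF pattern (GGGNGTGG), an ETS pattern (CNGGAAGT) or an AP-1 pattern (TGANTCA).

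Procr promoter, chr2:155750967-155751116, plus strand: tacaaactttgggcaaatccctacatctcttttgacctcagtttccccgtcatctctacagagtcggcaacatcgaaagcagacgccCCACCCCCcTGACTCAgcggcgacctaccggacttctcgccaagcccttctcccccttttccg
Anxa2 promoter, chr9:69453433-69453619, plus strand: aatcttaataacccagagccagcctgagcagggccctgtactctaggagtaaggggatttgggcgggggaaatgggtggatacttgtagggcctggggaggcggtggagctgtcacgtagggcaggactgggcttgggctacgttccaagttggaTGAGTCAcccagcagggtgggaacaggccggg
F2r promoter, chr13:95618488-95618716, minus strand: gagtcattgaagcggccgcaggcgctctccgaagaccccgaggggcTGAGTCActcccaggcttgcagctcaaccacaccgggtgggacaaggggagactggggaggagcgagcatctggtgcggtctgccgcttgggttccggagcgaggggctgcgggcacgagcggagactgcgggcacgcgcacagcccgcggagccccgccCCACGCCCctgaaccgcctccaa
Plaur promoter, chr7:24462233-24462482, plus strand: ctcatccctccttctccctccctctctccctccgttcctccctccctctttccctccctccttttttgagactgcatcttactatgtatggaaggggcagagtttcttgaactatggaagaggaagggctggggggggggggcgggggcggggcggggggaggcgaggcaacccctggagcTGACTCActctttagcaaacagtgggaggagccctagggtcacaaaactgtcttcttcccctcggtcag
Tfpi promoter, chr2:84476776-84477009, minus strand: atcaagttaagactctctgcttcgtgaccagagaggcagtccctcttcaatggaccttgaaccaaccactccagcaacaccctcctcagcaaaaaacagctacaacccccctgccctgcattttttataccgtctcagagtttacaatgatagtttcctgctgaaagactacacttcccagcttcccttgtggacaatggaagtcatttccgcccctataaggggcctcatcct
Tfpi promoter, chr2:84474186-84474424, minus strand: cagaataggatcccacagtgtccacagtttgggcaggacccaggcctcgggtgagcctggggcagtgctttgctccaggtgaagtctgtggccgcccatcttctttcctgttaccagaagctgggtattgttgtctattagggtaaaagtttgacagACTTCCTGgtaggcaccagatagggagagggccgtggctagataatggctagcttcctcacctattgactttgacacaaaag

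An AP-1 match stood in the 250 bases before the start of 4 of 6 genes, all but Tfpi and F8, against 6.75% of 32851 RefSeq windows of that length. It lay 154 bases before the start of Procr, 95 before Anxa2, 204 before F2r and 69 before Plaur. A KLF match stood in 2 of the 6, Procr and F2r, against 15.9% of all windows, and an ETS match in 1 of the 6, Tfpi, against 7.58%. These are matches of letters and not sites shown to be bound.

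The next 3 sequences are the central 300 bases of distal regions. The first and second were found in all 9 libraries, and the third was the distal region absent from young WT Cre with the highest median fold enrichment.

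Vwf -23.2 kb region, chr6:125529616-125529915, plus strand: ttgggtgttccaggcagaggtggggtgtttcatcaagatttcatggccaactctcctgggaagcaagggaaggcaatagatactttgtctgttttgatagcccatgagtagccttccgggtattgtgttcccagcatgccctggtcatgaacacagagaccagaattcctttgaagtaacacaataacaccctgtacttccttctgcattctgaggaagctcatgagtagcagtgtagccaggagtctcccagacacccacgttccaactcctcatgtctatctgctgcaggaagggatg
Plaur -6.7 kb region, chr7:24455686-24455985, plus strand: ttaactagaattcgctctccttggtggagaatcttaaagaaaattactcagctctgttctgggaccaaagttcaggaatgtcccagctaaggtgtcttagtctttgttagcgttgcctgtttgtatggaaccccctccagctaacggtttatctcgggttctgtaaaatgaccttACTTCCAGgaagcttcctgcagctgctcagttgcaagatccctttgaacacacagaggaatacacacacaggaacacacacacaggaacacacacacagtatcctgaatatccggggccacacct
Tfpi -7.8 kb region, chr2:84481912-84482211, plus strand: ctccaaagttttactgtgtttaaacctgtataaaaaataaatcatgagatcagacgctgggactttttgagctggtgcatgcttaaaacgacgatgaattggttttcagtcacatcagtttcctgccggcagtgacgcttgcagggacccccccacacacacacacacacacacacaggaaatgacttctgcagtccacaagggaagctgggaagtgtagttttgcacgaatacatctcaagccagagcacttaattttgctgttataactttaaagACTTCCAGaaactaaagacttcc

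The Vwf window held none of the 3 patterns, and the Plaur and Tfpi windows each held 1 ETS match. Over the 26 distal regions, 5 held a KLF match, 5 an ETS match and 2 an AP-1 match. Of 29506 distal regions found in at least 2 libraries, 12.2% held the KLF pattern, 2952 regions the ETS pattern and 14.7% the AP-1 pattern.

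The number of open regions at these genes followed the length of the lists. Young WT Cre libraries held 4 and 6 of the 34 regions, young EC-K4KO libraries 9, 17 and 18, old WT Cre libraries 25 and 24 and old EC-K4KO libraries 32 and 27. Per 1000 peaks of the list, the genes had 0.637 ± 0.0174 peaks in the 2 young WT Cre libraries (mean ± SD) and 0.653 ± 0.119 in the 2 old WT Cre libraries. The EC-K4KO means were 0.564 ± 0.162 (SD, n = 3) in young and 0.712 ± 0.0297 (SD, n = 2) in old mice. On this scale both old EC-K4KO libraries, at 0.691 and 0.733, lay above all 5 young ones, at 0.377 to 0.672, while the old WT Cre libraries, at 0.570 and 0.737, overlapped every group. Promoter regions went from 2 and 4 of 8 in young WT Cre to 8 of 8 in each old library. The Vwf and Plaur regions had the class promoter-TSS in old libraries alone, so this rise is partly set by the definition. Of the 9 genes, 2 and 3 had a promoter-TSS peak in young WT Cre, 3 to 5 in young EC-K4KO and 7 to 8 in old libraries. Over all 20035 genes, those with a promoter-TSS peak went from 17.0% and 22.4% in young WT Cre to 30.2% to 36.5% in young EC-K4KO and 40.4% to 42.3% in old libraries. Distal regions went from 2 of 26 in each young WT Cre library to 16 to 24 in old ones.

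**Figure D1:**
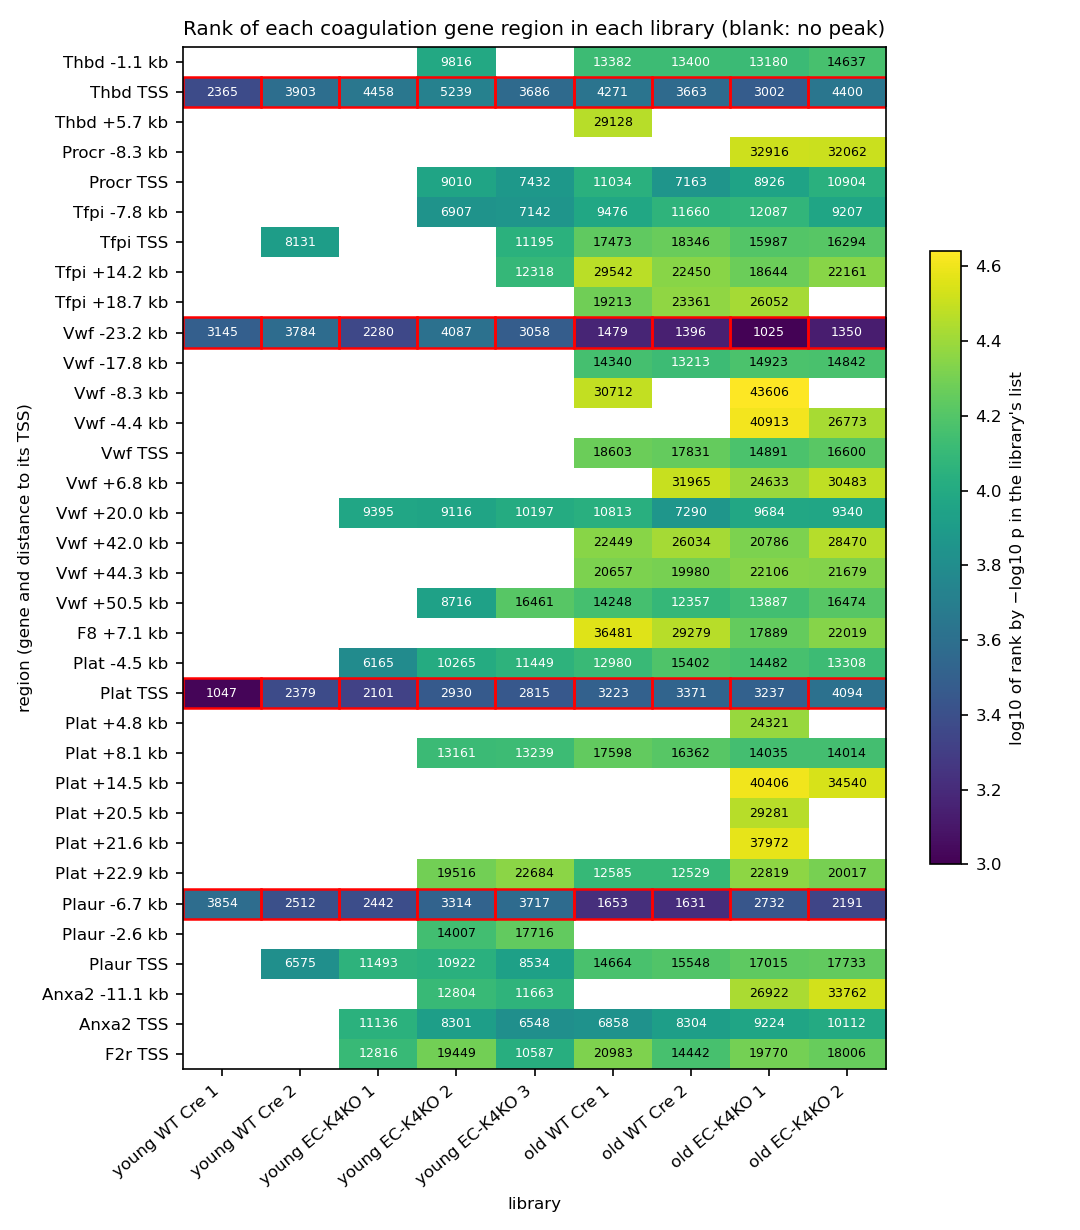
Rank of each of the 34 regions by -log10 p (number and colour, log10 scale) in each of the 9 libraries, with blank cells where the library has no peak. Red frames mark ranks within the 6157 strongest peaks, the length of the shortest list, and they hold the same 4 regions in every library.

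At equal list length the same regions of these genes were found in all 9 libraries. When only the 6157 strongest peaks of each list were kept, each library held exactly 4 of the 34 regions, and they were the same 4: the Thbd promoter, the Plat promoter, an intergenic region 23.2 kb before Vwf and an intergenic region 6.7 kb before Plaur. Of all regions found in the 9 libraries, 67.8% stayed within that length in every library. None of the other 30 regions reached rank 6157 in any library, against 5.94% of 87623 regions found in 1 to 8 libraries. The closest was the Plat -4.5 kb region, at rank 6165 in young EC-K4KO 1. Just inside lay the Thbd promoter, at rank 5239 in young EC-K4KO 2. Every region without a peak in the young WT Cre lists thus lay, wherever it was found, beyond the length of the shorter of them.

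The Thbd promoter (chr2:148407501-148408452) was open in every library. Thbd has no intron, and the peak covered the TSS and the start of the only exon. Its peak ranked 2365 and 3903 in young WT Cre, 4458, 5239 and 3686 in young EC-K4KO, 4271 and 3663 in old WT Cre, and 3002 and 4400 in old EC-K4KO. The ranks of the 4 groups overlapped, apart from young EC-K4KO 1 and 2, which lay lowest. Fold enrichment over the local background was 5.20 and 4.53 in young WT Cre, 4.09, 6.49 and 7.21 in young EC-K4KO, 5.89 and 7.75 in old WT Cre, and 8.28 and 7.12 in old EC-K4KO. The peak was 450 and 494 bp wide in young WT Cre and 607 to 946 bp wide in the other 7 libraries. The Plat promoter had the same order, at 318 and 432 bp against 592 to 1328 bp. The median width of all peaks was 346 and 354 bp in young WT Cre and 375 to 451 bp in the others. The share of regions with this separation was not counted. By limma on widths not adjusted for the library, 2886 of the 4872 regions found in every library were wider in young EC-K4KO than in young WT Cre. In old WT Cre 3433 were wider than in young WT Cre, and 0 were called narrower in either. The centre of the Thbd peak lay 9 to 215 bp past the TSS in every library. In 5 libraries it lay 157 bp or more past it, and there the deposited class is exon and not promoter-TSS. A narrow second peak 1.1 kb upstream was found in young EC-K4KO 2 and all 4 old libraries, 183 to 236 bp wide, with 35.3% of its bases repeat-masked against a median of 8.84% over distal regions.

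Procr had a promoter peak (chr2:155750861-155751459) in 6 libraries. Its fold was 6.15 and 6.97 in young EC-K4KO 2 and 3, 6.07 and 8.88 in old WT Cre, and 9.73 and 8.43 in old EC-K4KO. Neither young WT Cre library nor young EC-K4KO 1 had it. The ranks of the 6 peaks were 9010, 7432, 11034, 7163, 8926 and 10904 in the same order, of which 4 lie within the 9598 peaks of the longer young WT Cre list. A second region 8.3 kb upstream was in both old EC-K4KO libraries and no other, at ranks 32916 and 32062.

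Tfpi had 4 regions. The promoter region (chr2:84474196-84475417) had its peak centres at a median of -428 bp from the TSS and was open in young WT Cre 2, young EC-K4KO 3 and all 4 old libraries. In young mice its fold was 3.74 in WT Cre 2 and 5.58 in EC-K4KO 3, and in old mice it was 4.13 and 4.51 in WT Cre and 6.14 and 6.31 in EC-K4KO. The intergenic region 7.8 kb upstream had higher folds than the promoter, at 7.40 and 7.85 in young EC-K4KO 2 and 3, 7.06 and 6.58 in old WT Cre and 7.84 and 10.5 in old EC-K4KO. Intron regions at +14.2 kb and +18.7 kb were found in 5 and 3 libraries. The order, upstream region above promoter, held in the 5 libraries that had both.

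Vwf had the most regions, 10, of which 9 were distal. The strongest was the intergenic region 23.2 kb upstream (chr6:125529473-125530058), which overlaps no gene of GENCODE M21 and is 586 bp long with 0% of its bases repeat-masked. Its fold was 4.76 and 4.92 in young WT Cre, 5.64, 8.33 and 9.66 in young EC-K4KO, 9.94 and 11.96 in old WT Cre, and 13.3 and 11.7 in old EC-K4KO. All 4 old libraries lay above all 5 young ones, as they did in 20.3% of the 4872 regions found in every library. Its rank was 3145 and 3784 in young WT Cre, 2280, 4087 and 3058 in young EC-K4KO, 1479 and 1396 in old WT Cre, and 1025 and 1350 in old EC-K4KO. The ranks separated old from young as the folds did.

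The Vwf promoter itself (chr6:125552575-125553272) had a peak in the 4 old libraries alone. Its fold there was 3.82 and 4.72 in old WT Cre and 6.47 and 5.61 in old EC-K4KO, at ranks of 14891 to 18603. These ranks lie beyond the length of both young WT Cre lists, while the young EC-K4KO lists run to 23848 peaks or more. In intron and exon regions of Vwf the pattern varied. The intron region 19983 bp past the TSS was open in the 7 libraries outside the young WT Cre group, at folds of 3.08 to 7.14 and widths of 1052 to 1328 bp, and the region at +50.5 kb, of the class exon in 5 libraries, in 6. Regions at -17.8 kb, 41957 bp and +44.3 kb were in all 4 old libraries and in no young one.

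F8 had 1 region and no promoter peak in the deposited annotation. The region lay in intron sequence 7.1 kb past the TSS (chrX:75372688-75373543), in the 4 old libraries alone. Its fold was 2.78 and 3.30 in old WT Cre and 7.12 and 5.27 in old EC-K4KO, and its ranks were 36481, 29279, 17889 and 22019. Both old EC-K4KO folds lay above both old WT Cre folds, as in 71% of the 23788 regions found in these 4 libraries. A peak over an F8 start annotated in GENCODE M21 was named for the neighbouring gene Fundc2 in young EC-K4KO 3 and the 4 old libraries. That peak had folds of 4.48 in young EC-K4KO 3, 4.48 and 4.76 in old WT Cre and 7.29 and 6.495 in old EC-K4KO, and it cannot be assigned to either gene.

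Plat was the gene whose promoter stood highest in the young WT Cre lists. The promoter (chr8:22756796-22758123) ranked 1047 and 2379 in young WT Cre, 2101, 2930 and 2815 in young EC-K4KO, 3223 and 3371 in old WT Cre, and 3237 and 4094 in old EC-K4KO. All 4 old libraries lay below all 5 young ones in this order. The fold did not follow, at 6.10 and 5.12 in young WT Cre, 5.18, 6.74 and 6.85 in young EC-K4KO, 6.12 and 6.42 in old WT Cre and 6.83 and 5.80 in old EC-K4KO. Plat had 7 distal regions. The intergenic region at -4.5 kb was in the 7 libraries outside the young WT Cre group, with folds of 3.32 to 3.93 and widths of 295 to 336 bp. Intron regions at +8.1 kb and +22.9 kb were each in 6 libraries, young EC-K4KO 2 and 3 and the 4 old ones. The other 4 were found in old EC-K4KO alone, and 3 of them in old EC-K4KO 1 alone.

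Plaur, the urokinase receptor, had a strong upstream region and a weak promoter. The intergenic region 6.7 kb upstream (chr7:24455492-24456179) had folds of 3.87 and 5.09 in young WT Cre, 4.76, 8.19 and 7.29 in young EC-K4KO, 8.86 and 10.1 in old WT Cre, and 10.5 and 10.6 in old EC-K4KO. Old libraries lay above young ones in fold, again a pattern of 20.3% of shared regions. Its rank was 3854 and 2512 in young WT Cre, 2442, 3314 and 3717 in young EC-K4KO, 1653 and 1631 in old WT Cre, and 2732 and 2191 in old EC-K4KO. The rank of old EC-K4KO 1 fell among those of young libraries, while the other 3 old libraries stood above all of them. The promoter region (chr7:24461429-24463323) was in 8 libraries, all but young WT Cre 1, at folds of 2.56 to 5.04. Its peak was 635 to 889 bp wide in young libraries and 1634 to 1842 bp wide in old ones, and the centre of the narrow peaks fell in the intron. Peaks were wider in all 4 old than in all 3 young EC-K4KO libraries in 31.6% of the 11594 regions found in these 7 libraries, and in 2 of 9 such regions of these genes, the Plaur and F2r promoters.

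Anxa2 and F2r shared 1 pattern. Both promoters had a peak in the 7 EC-K4KO and old libraries and in neither young WT Cre library. The Anxa2 promoter (chr9:69453366-69454018) had folds of 2.84, 5.63 and 6.69 in young EC-K4KO, 6.39 and 5.92 in old WT Cre, and 6.79 and 6.92 in old EC-K4KO. The F2r promoter (chr13:95617901-95618767) had folds of 2.82, 3.45 and 5.97 in young EC-K4KO, 3.43 and 5.57 in old WT Cre, and 5.59 and 6.38 in old EC-K4KO. In both, young EC-K4KO 1 was lowest. The F2r peak was 251 to 303 bp wide in young EC-K4KO and 436 to 792 bp in old libraries. Anxa2 also had an intergenic region at -11.1 kb in 4 of 5 EC-K4KO libraries and in no WT Cre library, at ranks of 11663 and 12804 in young and 26922 and 33762 in old. These ranks lie beyond the length of both young WT Cre lists, and the share of all regions with this pattern was not counted.

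**Figure D2:**
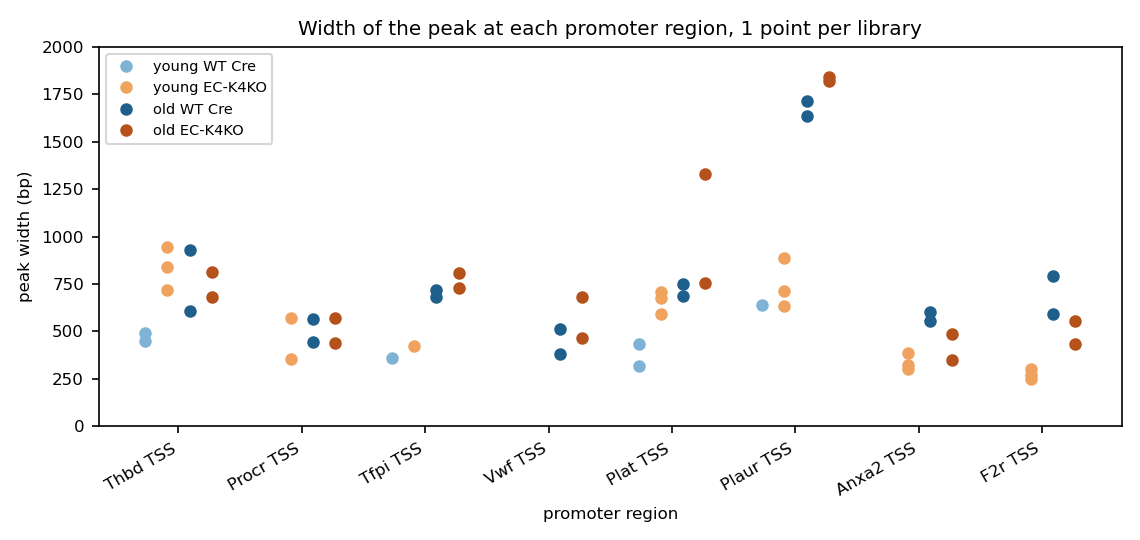
Width in bp of the peak at each of the 8 promoter regions, 1 point per library, coloured by group. The Plaur peak was 635 to 889 bp wide in young and 1634 to 1842 bp wide in old libraries, while at Procr the groups overlapped.

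Presence patterns of the regions were set beside those of all regions found in at least 2 libraries. Of the 8 promoter regions, 2 were in all 9 libraries, against 34.1% of 10002 promoter regions, and 2 were in all 7 other libraries and neither young WT Cre library, against 17.5%. The Vwf promoter alone was in all 4 old and no young library, a pattern of 2.39% of promoter regions. Of the 22 distal regions found in at least 2 libraries, 2 were in all 9, against 4.95% of 29506, 2 were in all but young WT Cre, against 6.42%, 4 were in all 4 old and no young library, against 11.1%, and 3 were in both old EC-K4KO libraries alone, against 11.6%. With so few members these shares are a description.

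The first tested question was whether the 4 regions found in every library changed their place relative to other regions. The 4872 regions with a peak in all 9 libraries were ranked by -log10 p within each library, the rank was turned into a normal score, and the scores were compared by limma with Benjamini-Hochberg adjustment over all 4872 regions. The rank is given as a percentage of the 4872, where 0% is the strongest. In bulk nuclei, fewer cells with a region open and less opening per cell cannot be told apart.

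The Vwf -23.2 kb region stood higher in old than in young EC-K4KO mice. It stood at 62.6% and 67.0% in young WT Cre (64.8% ± 3.06, SD, n = 2) and at 29.0% and 27.9% in old WT Cre (28.4% ± 0.784, SD, n = 2). In EC-K4KO it stood at 44.7%, 70.1% and 56.7% in young mice (57.1% ± 12.7, SD, n = 3) and at 20.5% and 26.6% in old ones (23.6% ± 4.35, SD, n = 2). Old EC-K4KO exceeded young EC-K4KO by 0.91 in normal score (SE 0.23, limma adjusted p = 0.0442), a contrast in which 6.51% of regions were called. In the WT Cre genotype the difference was 0.95 (SE 0.25, limma adjusted p = 0.0511), which missed the threshold, in a contrast with 6.08% called, and old WT Cre differed from young EC-K4KO by 0.76 (limma adjusted p = 0.0686), with 7.88% called. The age differences of the genotypes were not called different (interaction -0.04, 95% interval -0.79 to 0.71, limma adjusted p = 0.979). All 4 old libraries stood above all 5 young ones, as in 9.05% of the 4872 regions. The call in EC-K4KO was lost without old EC-K4KO 1 (adjusted p = 0.347), old EC-K4KO 2 (0.278), old WT Cre 1 or 2 (0.0750 each), young EC-K4KO 2 (0.113) or young EC-K4KO 3 (0.0912). In the exact stratified permutation test of age the difference was 0.93 (p = 0.0167, the smallest that 60 arrangements can give, adjusted p = 0.106), higher in 4 of 4 old libraries.

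**Figure D3:**
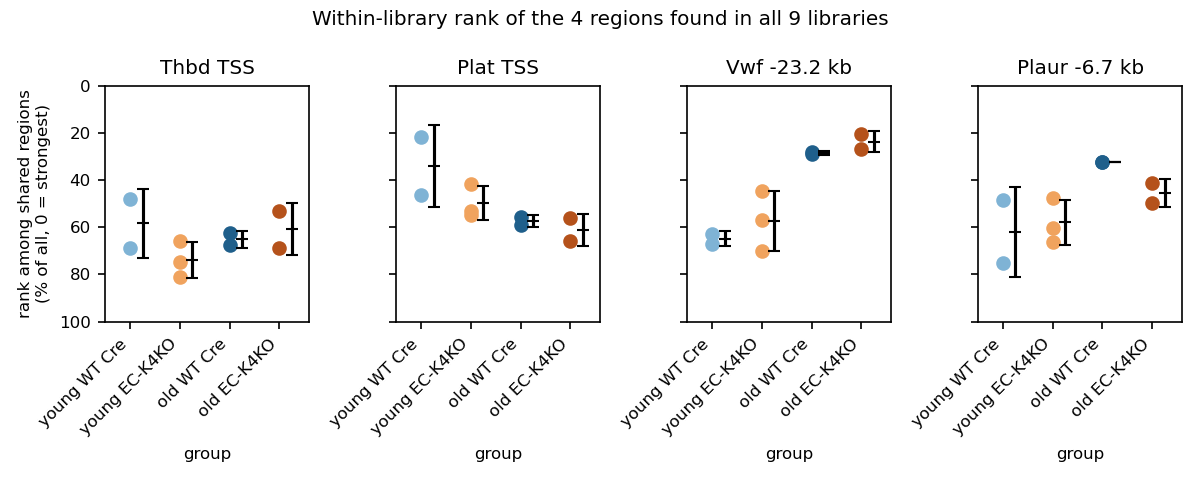
Rank of the 4 regions found in all 9 libraries among the 4872 shared regions, in percent with 0 at the top as the strongest, 1 point per library, with group mean and SD as bars. At Vwf -23.2 kb the old libraries stood at 20.5% to 29.0% and the young ones at 44.7% to 70.1%.

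The other 3 shared regions had no call in any of the 6 contrasts. The Plaur -6.7 kb region stood at 75.3% and 48.4% in young WT Cre, 47.4%, 60.2% and 66.1% in young EC-K4KO, 32.2% and 32.1% in old WT Cre, and 49.5% and 41.3% in old EC-K4KO. Old WT Cre differed from young WT Cre by 0.78 (SE 0.28, limma adjusted p = 0.106) and, without young WT Cre 2, by 1.10 (adjusted p = 0.0166), but by 0.36 (adjusted p = 0.361) without young WT Cre 1. The Plat promoter stood at 21.5% and 46.1% in young WT Cre, 41.5%, 54.7% and 53.1% in young EC-K4KO, 55.6% and 59.0% in old WT Cre, and 56.2% and 65.8% in old EC-K4KO. It was below every young library in all 4 old ones, as were 10.1% of regions, and the difference of old from young WT Cre was -0.63 (SE 0.27, limma adjusted p = 0.167), -0.93 without young WT Cre 2 (adjusted p = 0.0275) and -0.27 without young WT Cre 1 (adjusted p = 0.482). The Thbd promoter stood at 48.0% and 68.7% in young WT Cre, 74.7%, 80.9% and 65.7% in young EC-K4KO, 67.7% and 62.6% in old WT Cre, and 53.1% and 68.7% in old EC-K4KO. Its largest contrast was the interaction, 0.54 with a 95% interval of -0.27 to 1.35.

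No difference between genotypes passed the threshold for these 4 regions at either age. Young EC-K4KO less young WT Cre was -0.43 for the Thbd promoter (95% interval -0.97 to 0.11), -0.44 for the Plat promoter (-0.98 to 0.10), 0.19 for Vwf -23.2 kb (-0.31 to 0.70) and 0.12 for Plaur -6.7 kb (-0.44 to 0.68), in a contrast in which 4.15% of regions were called. Without young WT Cre 1 the Thbd and Plat differences were -0.10 and -0.07 (limma adjusted p = 0.827 and 0.870), and that of Plaur was -0.19 (0.619). Among regions in at least 7 libraries that of Vwf was 0.71 (limma adjusted p = 0.0231). In that setting 2453 of 8573 regions were called, 2364 of them higher in young EC-K4KO. Each library was ranked there over the regions it held, and the young WT Cre lists are the shortest. Differences from young WT Cre in that setting are thus not on a common scale. In old mice the differences were 0.11 (-0.49 to 0.70), -0.10 (-0.69 to 0.50), 0.15 (-0.40 to 0.71) and -0.35 (-0.96 to 0.27) in the same order. In that contrast limma called 0% of the 4872 regions, with 189 at an unadjusted p under 0.05, and in the interaction also 0%, with 525. The intervals reach differences of up to 0.98 in size, so a lack of calls does not show that the genotypes were alike.

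**Figure D4:**
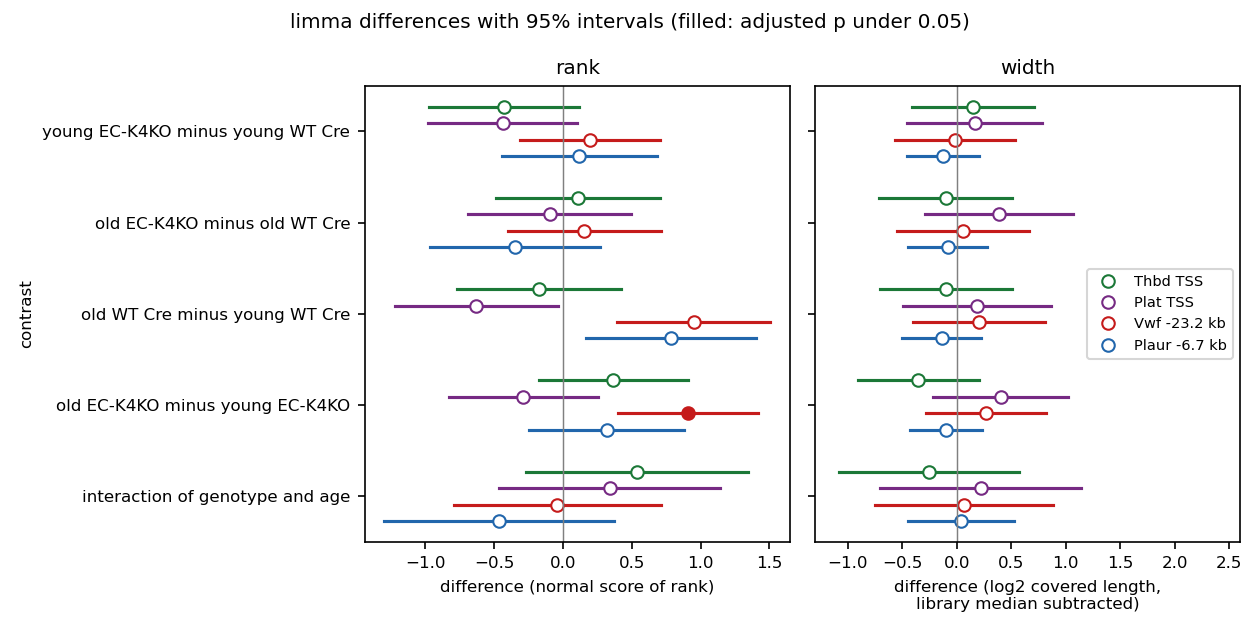
Differences in normal score of rank (left) and in log2 covered length after subtraction of the library median (right) for the 4 shared regions in 5 contrasts, with 95% limma intervals. The filled point is the only call, Vwf -23.2 kb in old EC-K4KO against young EC-K4KO, at 0.91.

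Peak width relative to the library was not called for any of the 4. Covered length was taken as log2 after subtraction of each library's median over the shared regions. The contrasts called 13.5% of regions for young EC-K4KO against young WT Cre, 12% for old against young WT Cre, 0% for old EC-K4KO against old WT Cre, where 93 had an unadjusted p under 0.05, 0.123% for old against young EC-K4KO, 0.144% for old WT Cre against young EC-K4KO and 0.349% for the interaction. The largest member difference was that of the Plat promoter in old against young EC-K4KO, 0.40 with a 95% interval of -0.22 to 1.02. Without that subtraction all 4 regions were called wider in young EC-K4KO, and again in old WT Cre, than in the young controls. So were 2886 of the 4872 regions in young EC-K4KO and 3433 in old WT Cre, with 0 called narrower in either. The Thbd promoter then differed by 0.81 (limma adjusted p = 0.0158) and 0.67 (limma adjusted p = 0.0324) on the log2 scale.

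Peaks per gene were compared over all 17878 genes with a peak in at least 2 libraries, by a two-sided exact stratified permutation test. Vwf had 1 and 1 peaks in young WT Cre, 2, 3 and 3 in young EC-K4KO, 8 and 8 in old WT Cre and 11 and 9 in old EC-K4KO. This is a mean difference with age of 7.17 peaks within genotype (exact p = 0.0167, adjusted p = 0.0927). Plat had 1 and 1, 2, 4 and 4, 4 and 4, and 8 and 5 peaks in the same order, a difference with age of 3.08 with the same p-values. Procr and F8 also reached the smallest p with age, at 1.17 and 1.00 peaks. In these 4 genes, and in Thbd, Tfpi and F2r, every old library had at least as many peaks as any young library. Ties were included, and F2r had 1 peak in each young EC-K4KO and each old library. The share of all genes with this pattern was not counted. Over all 17878 genes the mean number of peaks was 0.343 and 0.533 in young WT Cre. It was 1.30 to 1.55 in young EC-K4KO and 1.81 to 2.50 in old libraries. With genotype, Plat (2.42 peaks), Vwf (1.83) and Anxa2 (1.33) had the lowest p (exact p = 0.0333, adjusted p = 0.485). No gene of the 17878 passed after adjustment, 0% with age and 0% with genotype, while 4063 and 1024 had an unadjusted p under 0.05. In lists cut to 6157 peaks, 4 of the 9 genes kept a peak and each of these had exactly 1 in every library.

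**Figure D5:**
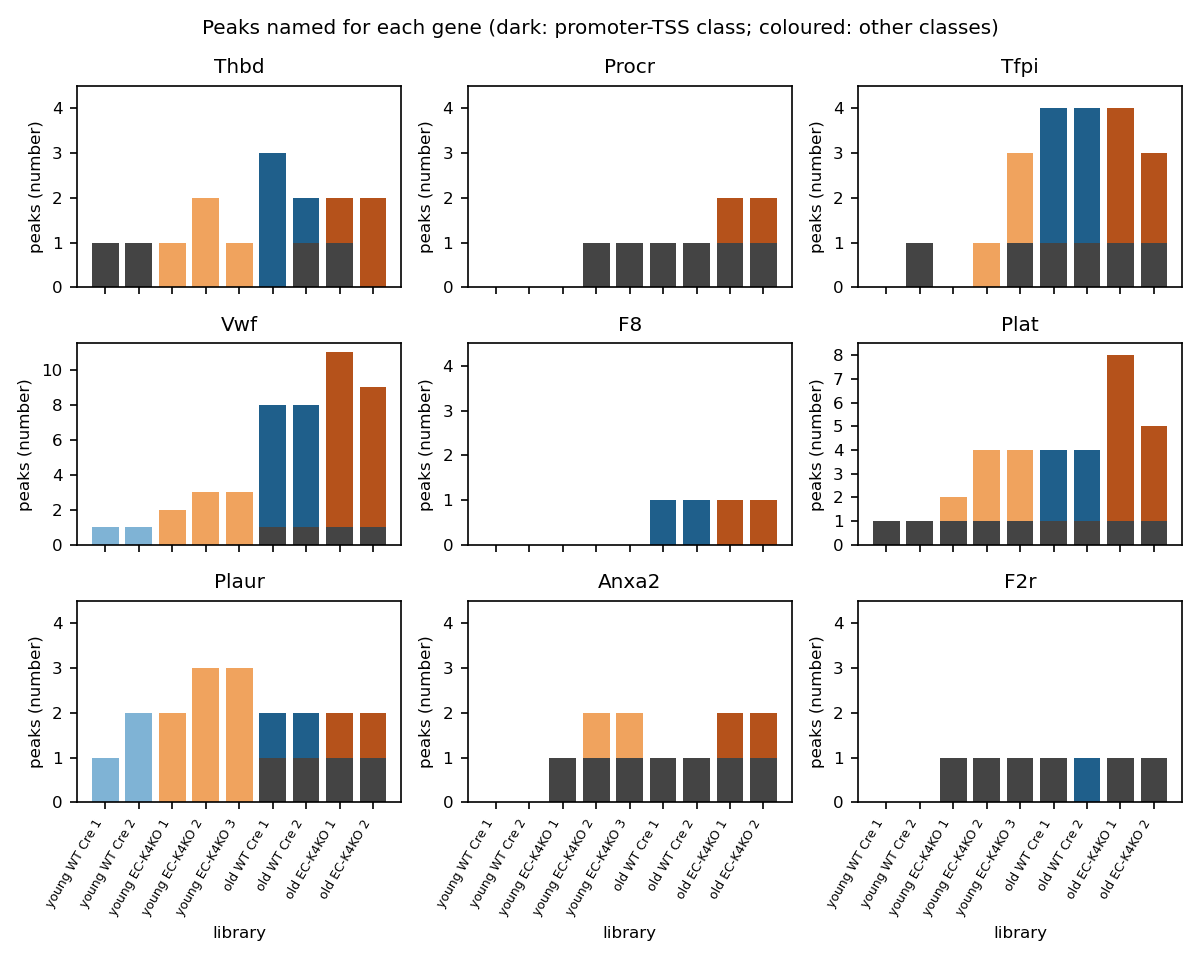
Number of peaks named for each of the 9 genes in each library, dark for the class promoter-TSS and coloured by group for other classes. Vwf went from 1 peak in young WT Cre to 8 to 11 in old libraries, and F8 had a peak in old libraries alone.

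Other clotting genes were read from 2 lists. Of 16 genes active at the vessel wall, 0 had a promoter-TSS peak in all 9 libraries, and the number with one was 0 and 3 in young WT Cre, 4 to 9 in young EC-K4KO, 6 and 8 in old WT Cre and 8 in each old EC-K4KO library. Serpine2, F2rl1, F2rl2 and F2rl3 had peaks but none of this class, and Adamts13, which encodes the protease that trims von Willebrand factor, had no peak in any library. Of 16 plasma factors made by liver, 15 had no promoter-TSS peak in any library, namely F2 (prothrombin), the fibrinogen genes Fga, Fgb and Fgg, Plg (plasminogen), Proc (protein C), Serpinc1 (antithrombin), F5, F9, F10, F11, F12, F13b, Klkb1 and Serpinf2. The exception was F7 (factor VII), with one in both old EC-K4KO libraries. None of these 32 genes had a region in all 9 libraries, so none could be compared by rank, and none was called by peaks per gene.

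The 3 shared regions whose normal scores over the 9 libraries were most like those of Vwf -23.2 kb were promoter-class regions named for Aktip (Pearson r = 0.983), Mdh1 (r = 0.964) and Tmem218 (r = 0.962). The 9 points share libraries and list lengths, and the correlations are a description.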

How the data were processed

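Omni-ATAC-seq of brain EC nuclei gave 9 libraries. By the methods of the study, the authors mapped reads to mm10 (GRCm38) with Bowtie2 and called broad peaks with MACS2, per library and with no control. Each deposited list gives a score (10 times -log10 q), a fold, which is a ratio to local background, and -log10 p and -log10 q. The deposited annotation gives class, distance and gene. Read counts were not analysed here, depth is unknown, and the authors' DiffBind test was not rerun.

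The genes, lists, motifs and tests were chosen with earlier results of these data known. Peaks were ranked by -log10 p and merged at 1 bp of overlap. limma 3.58.1 (R 4.3.3) compared 4 groups over 4872 shared regions without a block, at an adjusted p under 0.05. The fixed rank test named promoters, yet 2 of the 4 shared regions were distal. All 9 genes were named; of the 2 other coagulation lists, genes with a promoter-TSS peak in all or no libraries or a call were named. F7 and the marker genes were named after their values were seen. Other work used Python 3.11.15, pandas 2.3.3, scipy 1.17.1 and pysam 0.24.0. The tests were tried on simulated data. GENCODE M21 and GRCm38.p6 gave positions. Alternatives were leaving out libraries, a replicate block, q under 0.01, lists of 6157 peaks, other rank scales and regions in at least 7 libraries.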

Additional observations from a re-analysis of the deposited data

How the results depend on the processing

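Shared regions called by rank numbered 1 of 4. They numbered 0 with the replicate block and 2 among regions in at least 7 libraries. Among promoter-TSS regions alone they numbered 0, but the called region is distal and was not in that fit. The exact stratified permutation test called 0 of all 4872 regions, with a smallest adjusted p of 0.106 for age. Its 0 for these regions therefore says nothing about stability. The Vwf -23.2 kb difference between old and young EC-K4KO (0.91) was 0.98 ranked by fold (adjusted p = 0.0999), 0.65 among regions in at least 7 libraries (0.0776), 0.92 with the replicate block (0.0921) and 0.74 to 1.07 without 1 library (adjusted p from 0.0214 to 0.347), called in 3 of 9. In WT Cre (0.95) it passed with log2 rank (1.19), q under 0.01 (1.09), rank by fold (1.27) and regions in at least 7 libraries (1.24), and was 0.85 to 0.97 without 1 library, called in 2 of 9. Among regions in at least 7 libraries, limma called 2297 of 8573 in old against young WT Cre, 2175 of them higher in old. It called 2453 in young EC-K4KO against young WT Cre, 2364 of them higher in young EC-K4KO. Each library was ranked there over the regions it held, and the young WT Cre lists are the shortest. Values from that setting that involve young WT Cre, the 1.24 included, therefore do not test stability. Young EC-K4KO less young WT Cre reversed among regions in at least 7 libraries for the Thbd promoter (0.23) and the Plat promoter (0.0816), and at Plaur -6.7 kb it was -0.19 to 0.47 without 1 library. Old EC-K4KO less old WT Cre was -0.0319 at the Thbd promoter ranked by fold, and without 1 library -0.0967 to 0.31 there and -0.22 to 0.0286 at the Plat promoter. The interaction was 0.0780 at Vwf -23.2 kb with log2 rank and -0.21 to 0.12 without 1 library, and -0.16 at the Thbd promoter among regions in at least 7 libraries. None of these reversed values was called. Width calls went from 0 to 4 without subtraction of the library median. In that setting 2886 of 4872 regions were called in young EC-K4KO and 3433 in old WT Cre, both against young WT Cre. Peaks per gene gave 0 calls, which says nothing about stability: the smallest possible p was 0.0556 without 1 young EC-K4KO library and 0.0333 or 0.0417 without another. The cause was not tested except that left-out libraries reduce the samples.

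Genes with a promoter-TSS peak in every library numbered 2 in young and 6 in old WT Cre, and 3 in young and 7 in old EC-K4KO. Over all 20035 genes the shares were 14.0% and 35.4% in WT Cre and 23.7% and 37.2% in EC-K4KO. In lists of 6157 peaks the last 3 groups had 1 each, and by overlap with a TSS or by distance young EC-K4KO had 5. Without 1 library the numbers were 2 to 3 and 7 in young and old WT Cre, and 3 to 4 and 7 to 8 in young and old EC-K4KO. Distal regions in any library numbered 2 and 18 in young and old WT Cre and 12 and 24 in young and old EC-K4KO, were 2 in every group in lists of 6157 peaks, and without 1 library were 2, 16 to 17, 11 to 12 and 19 to 24 in that order. Whether the replicate numbers pair the libraries could not be settled. Deviations from the group means correlated at -0.0133 to 0.118 between equal numbers (median 0.0466). Between different numbers they correlated at -0.118 to 0.0722 (median -0.0343). In groups of 2 the deviations mirror each other, which forces opposite signs on equal and different numbers. With the block the calls went from 317 to 55 in old against young EC-K4KO, and from 202 to 0 in the young. Depth is unknown, so a region without a peak is one not detected at that list's limit.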
